A study of Mus musculus with 2 samples.

Results

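The cells described here are tumor macrophages of B16-F10 melanoma chosen by their transcripts of Lyve1, Cbr2 and Cd163, and they numbered 176 of 12078 cells kept. A member held at least 3 unique molecular identifiers (UMIs, each standing for 1 captured mRNA molecule) of these 3 genes together and at least 3 UMIs of the complement genes C1qa, C1qb and C1qc together. It also held at most 9 UMIs of Retnla, at most 2 of the cycling genes Mki67 and Top2a together, and under 0.15% of its UMIs from the hypoxia genes Vegfa, Hilpda, Ero1l, Egln3 and Bnip3. Mitochondrial (mt-) genes made up under 10% of the UMIs of every cell kept. B16-F10 is a mouse melanoma line. Mice of the genotypes Irg1+/+ and Irg1-/-, on the C57BL/6J background, received 200000 of its cells under the skin. The knockout had been backcrossed onto C57BL/6J and is of the whole body, so every host cell of the tumor, not only macrophages, carries it, and the injected tumor cells do not differ between the genotypes. Tumors were taken at day 10, pieces of 100 mm3 from 3 mice were pooled within each genotype, and CD45+ cells were sorted and captured on the BD Rhapsody microwell system. Each genotype is therefore 1 library, so no difference between genotypes has a replicate check, and the spread between mice cannot be seen. The Irg1+/+ library held 6284 kept cells with a median of 4646 UMIs, and the library labelled Irg1-/- held 5794 with a median of 4703.

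Irg1, listed as Acod1 (chromosome 14, 103046977 to 103056573, GRCm38), encodes the enzyme that makes itaconate from cis-aconitate in activated macrophages, and its deletion defines the comparison. Members of the Irg1+/+ library had 55.6 UMIs of Acod1 per 1000000 UMIs outside mt- genes (CPM) (exact 95% Poisson interval 43.4 to 70.1, 71 UMIs). Members of the library labelled Irg1-/- had 106 CPM (88.3 to 127, 124 UMIs). The targeted transcript was thus not lower under the knockout label, in members or in the other C1q-positive cells (74.6 and 93.9 CPM), though it was in lymphocytes, at 52.0 (42.7 to 62.6) and 32.0 CPM (22.4 to 44.3). Since the deposited table holds a single count for each gene, UMIs from the part that was removed cannot be told from the rest, so the count does not check the deletion, and every direction given below between genotypes is between libraries as labelled. After each cell was thinned to 2000 UMIs, Acod1 was found in 5.56% and 15.2% of members, and in 4.55% and 4.44% of lymphocytes, which should lack it. Members of the Irg1+/+ library thus lay at the level of its lymphocytes in CPM and in share, so their Acod1 is not read as expression. In addition, 2 members held 31 of its 71 UMIs, and 2 members of the other library held 36 of 124. All intervals here cover counting error only.

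Macrophages that settle in a tissue and renew there tend to carry scavenging and clearing functions, and those along vessels are known by Lyve1, a receptor for hyaluronan. Cd163 is the scavenger receptor for haptoglobin bound to hemoglobin, and Cbr2 is a carbonyl reductase found in resident macrophages of several mouse tissues. Selenop carries selenium out of the cell, Ednrb is an endothelin receptor and Lifr is the receptor for leukemia inhibitory factor. In a growing tumor such cells lie among many macrophages derived from blood monocytes, which enter by the chemokine receptor Ccr2.

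The sequence upstream of Cbr2, Cd163 and Selenop is shown because the first 2 are the gate genes detected in the most members and Selenop is the marker outside the gate found in most. RefSeq promoters of GRCm38.p6 were matched for 5 of the 6 marker genes, and the stretches below lie before an annotated start and outside exons, read 5′ to 3′ on the strand of the gene; that of Selenop lies inside the span of the gene, before an alternative start. They lie at chr11:120732115-120732271 (minus strand) for Cbr2, chr6:124304401-124304650 (plus strand) for Cd163 and chr15:3270517-3270766 (plus strand) for Selenop. Capitals mark CTTCCTC, the reverse complement of GAGGAAG, a core motif of the macrophage factor PU.1.
Cbr2: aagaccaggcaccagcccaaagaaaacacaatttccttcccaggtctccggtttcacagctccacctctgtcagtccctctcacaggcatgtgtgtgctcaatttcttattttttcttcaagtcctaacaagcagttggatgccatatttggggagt
Cd163: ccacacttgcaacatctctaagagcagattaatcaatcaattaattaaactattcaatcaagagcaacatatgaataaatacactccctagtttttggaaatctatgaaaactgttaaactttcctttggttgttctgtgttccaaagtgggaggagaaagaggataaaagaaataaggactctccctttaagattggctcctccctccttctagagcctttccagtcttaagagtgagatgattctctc
Selenop: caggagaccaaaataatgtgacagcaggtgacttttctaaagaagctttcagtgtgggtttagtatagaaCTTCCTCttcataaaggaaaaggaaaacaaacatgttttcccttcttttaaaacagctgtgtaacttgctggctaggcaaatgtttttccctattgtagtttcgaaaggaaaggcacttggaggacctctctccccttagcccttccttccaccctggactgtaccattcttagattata
GAGGAAG, searched on both strands, was found in 3 of 8 marker windows, those of Cbr2 and Selenop, and in 10.6% of 32851 promoters of the same length. The Selenop windows with a match overlap and hold the same copy of the motif. The count of windows is therefore not a count of separate copies, and it is not compared with the share of promoters. The Cbr2 match lies past the printed stretch, in bases annotated as exon. TGCTGAC (Maf, in 3.81% of promoters), TGACTCA (AP-1, 4.46%) and CACGTG (E-box, 6.02%) were in none of the marker windows. A match is a description of the letters, not a site of binding.

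Cbr2 carried the gate. It was detected in 74 of 74 members of the Irg1+/+ library, with a median of 5 UMIs a cell and at most 62, and in 100 of 102 members of the library labelled Irg1-/-, with a median of 6 and at most 47. Cd163 was detected in 20 (27.0%, exact binomial interval 17.4 to 38.6) and 27 members (26.5%, 18.2 to 36.1). Lyve1, the gene that would mark a perivascular macrophage, was detected in only 7 (9.46%, 3.89 to 18.5) and 12 (11.8%, 6.23 to 19.6). Members with Cbr2 and neither of the other gate genes numbered 51 (68.9%) and 68 (66.7%), those with Cbr2 and Cd163 16 and 21, and those with all 3 genes 4 and 5. Because Lyve1 and Cd163 were absent from most of these deeply sequenced cells, they are called members, or Cbr2+ C1q macrophages, and not Lyve1 macrophages.

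**Figure D1:**
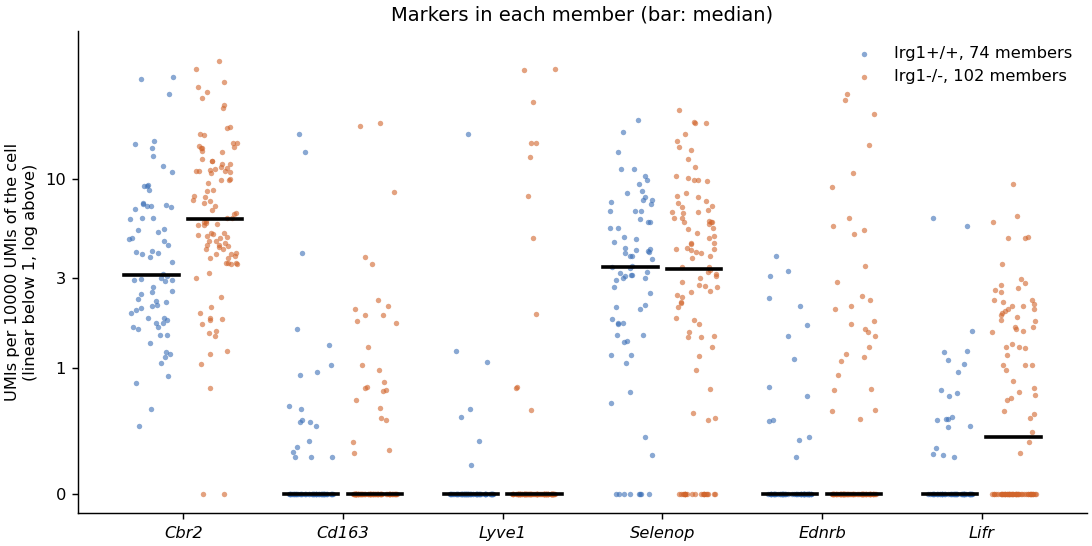
UMIs of the 3 gate genes and of 3 markers outside the gate in each member, per 10000 UMIs of the cell (axis linear below 1 and logarithmic above), for 74 members of the Irg1+/+ library (blue) and 102 of the library labelled Irg1-/- (orange); black bars are medians. Cbr2 and Selenop are above 0 in most members, whereas the median of Lyve1, Cd163 and Ednrb is 0 in both libraries.

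Free RNA bears on single UMIs, so the same genes were read in lymphocytes (608 and 359 cells with at least 3 UMIs of Cd3d, Cd3e, Cd3g and Cd79a together and at most 2 of C1q, median 3248 and 2662 UMIs). Members had a median of 17007 and 11200 UMIs. At 2000 UMIs a cell (72 and 99 members, 506 and 270 lymphocytes), Cbr2 was present in 48.6% and 69.7% of members against 2.96% and 2.59% of lymphocytes. Cd163 was present in 2.78% and 10.1% of members and in 0.395% and 0.370% of lymphocytes. Lyve1 was found at this depth in no member of the Irg1+/+ library, of which 7 held it at full depth, and in 6.06% of members of the other. The gate chose these values, so they describe the members and test nothing.

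Lyve1 was concentrated in few cells. The 7 Lyve1-bearing members of the Irg1+/+ library had 1 or 2 UMIs each. In the library labelled Irg1-/-, 2 members held 42 and 40 UMIs, 64.1% of the 128 in all members, and 2 more held 13 and 12. The cell with 42 Lyve1 UMIs also had 47 of Cbr2, 22 of Cd163, 15 of Fcna (ficolin A, a lectin of the complement system), 14 of the C-type lectin Cd209f and 56 of Vsig4, a complement receptor of resident macrophages. Those 56 Vsig4 UMIs were the only ones among the members of either library, so the member level of 48.0 CPM is that of 1 cell. The cell with 40 Lyve1 UMIs had 28 of Fcna, 5 of Cd209f and 184 of Ccl8, a chemokine, but no Vsig4. These cells carry several resident genes at once. By contrast, a member with 3 Lyve1 UMIs had no Cbr2, Cd163, Selenop or Mrc1 and 247 of the MHC class II gene H2-Aa, so the gate also admitted cells of another make-up.

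The edge of the gate lay within a gradient. Among C1q-positive cells within the upper limits of the rule, 46 and 47 had a gate sum of 2 (just outside) and 18 and 19 a sum of 3 (just inside). Selenop stood at 201 and 122 CPM just outside and at 228 and 238 CPM just inside. Mrc1, the mannose receptor, stood at 741 and 672 CPM outside and at 679 and 630 inside. Cells on both sides of the threshold had close levels of Mrc1. Far from the threshold, 16 and 33 members had a gate sum of 10 or more, up to 66 and 111.

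The upper limits of the rule took out different shares of cells in the 2 libraries. Of cells with a gate sum of at least 3 and C1q, 62 of 156 (39.7%, 32.0 to 47.9) in the Irg1+/+ library and 20 of 129 (15.5%, 9.73 to 22.9) in the other exceeded 2 UMIs of Mki67 and Top2a, genes of dividing cells. The hypoxia limit was reached by 13.5% and 2.33% of them. Among C1q-positive cells outside the gate the same shares were 21.5% and 16.1% for the cycling genes and 19.2% and 13.4% for hypoxia. Cells removed at the cycling step were deep, with a median of 29135 and 20790 UMIs. The part of depth in the shares over this limit was not tested. Members made up 1.18% of kept cells in the Irg1+/+ library (74, 0.926 to 1.48) and 1.76% in the library labelled Irg1-/- (102, 1.44 to 2.13), a ratio of 1.49 (1.10 to 2.04). Of C1q-positive cells within the upper limits they were 3.55% and 4.79%, a ratio of 1.35 (0.991 to 1.85). Without the upper limits the shares of kept cells were 2.48% and 2.23% and their order turned, so the order of the shares depended on those limits. Leaving out cells with 2 or more lymphocyte UMIs or above the 95th percentile of UMIs gave 0.479% and 1.37%, a ratio of 2.86. The intervals of these shares were 0.262 to 0.803 and 0.984 to 1.85. The shares are of the cells left by the filter, so they do not show how many members it removed. Genes with enough UMIs in members to be compared between libraries fell from 4236 to 818, so much of the members' UMIs was left out.

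Of the markers named for these cells that the gate did not use, Selenop and Ednrb were higher in members of both libraries than in the 2010 and 2026 other C1q-positive cells, defined by the same limits and a gate sum of at most 2, and Lifr in the library labelled Irg1-/-. Selenop stood at 445 CPM (410 to 484) and 522 CPM (482 to 566) in members and at 77.7 and 85.0 CPM in the others. Ednrb stood at 41.5 (31.1 to 54.3) and 157 CPM (135 to 181) against 6.68 and 11.0 CPM. Lifr stood at 29.7 (21.1 to 40.8) and 105 CPM (87.5 to 126) against 22.6 and 34.8 CPM. Selenop was thus broad, with a UMI in 89.2% and 79.4% of members, and found in 47.2% and 48.5% of members at 2000 UMIs against 6.92% and 6.67% of lymphocytes. Ednrb was narrow: 15 and 31 members held it, and 5 cells carried 69.8% and 66.7% of its UMIs. Lifr in members of the Irg1+/+ library differed from the others by a log2 ratio of 0.41, whose interval (-0.13 to 0.88) includes 0, and by -0.10 (-0.77 to 0.45) without the 2 members with the most Lifr.

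**Figure D2:**
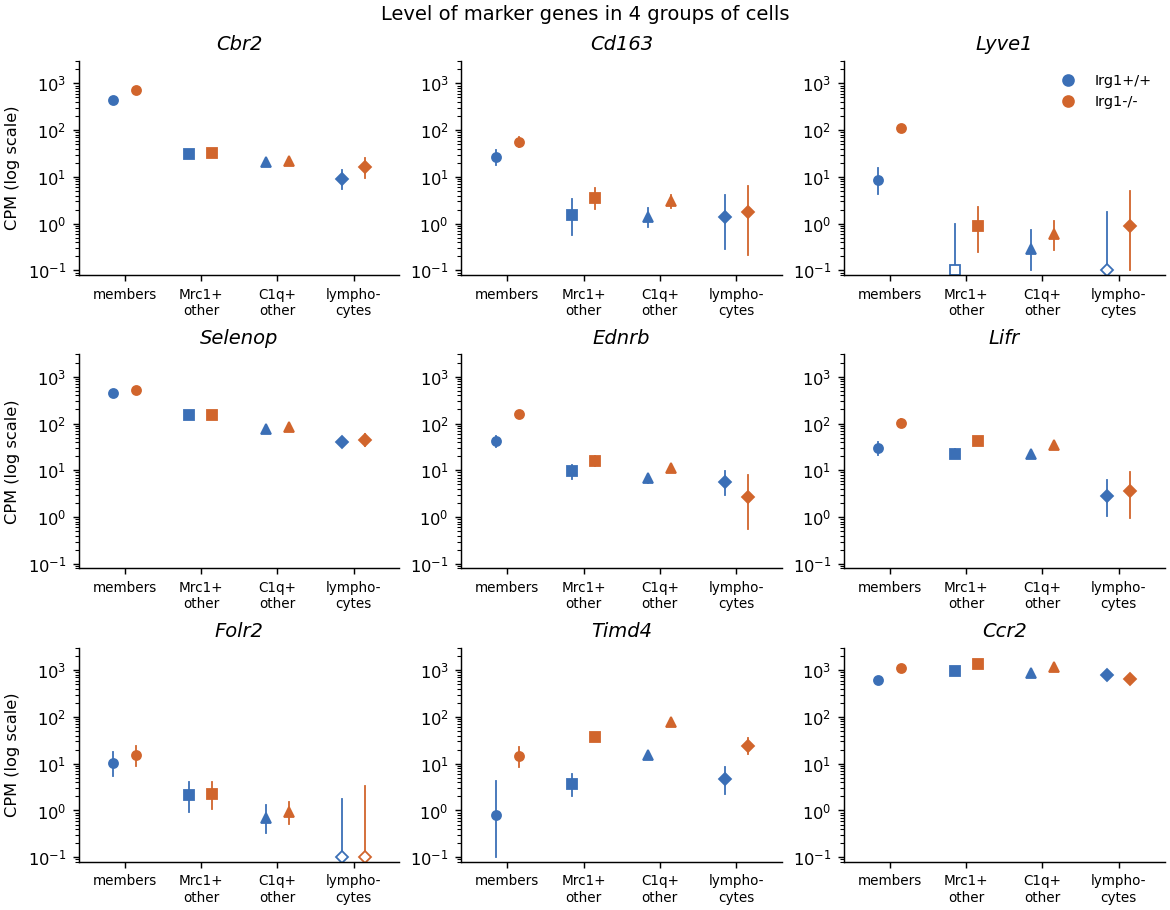
CPM (log axis) of 9 genes in members, in other C1q-positive cells with at least 3 UMIs of Mrc1, in all other C1q-positive cells and in lymphocytes, for the Irg1+/+ library (blue) and the library labelled Irg1-/- (orange); lines are exact 95% Poisson intervals, and open symbols at the axis are counts of 0. Gate genes and Folr2 are highest in members, whereas Timd4 and Ccr2 are no higher in members than in other C1q-positive cells.

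The members held more of the macrophage markers than other C1q-positive cells and less of the T and NK, dendritic and monocyte markers. The 9 macrophage markers (C1qa, C1qb, C1qc, Adgre1, Csf1r, Mertk, Fcgr1, Cd68 and Apoe) summed to 11830 and 13196 CPM in members and to 5056 and 5424 CPM in other C1q-positive cells, with all 9 detected; the C1q genes are part of the rule. Monocyte markers summed to 1630 and 4207 CPM, led by Ccr2 (608 CPM) and by Ly6c2 (1777 CPM), against 3723 and 5601 CPM. All 6 T and NK genes were detected in members, at a sum of 355 and 354 CPM led by Trac (106 CPM) and Nkg7 (132 CPM), below the 988 and 646 CPM of other C1q-positive cells. Dendritic genes summed to 124 and 206 CPM, led by Ccr7 and Cd209a, against 700 and 702 CPM. In 71.6% of the other C1q-positive cells of each library, C1q made up under 0.2% of UMIs. With these levels of T and NK and dendritic genes, contrasts with them are not read as contrasts between macrophages alone.

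Lyve1 also marks lymphatic endothelium, so that list was read in full. It summed to 144 (124 to 166) and 98.5 CPM (81.3 to 118) in members and to 109 and 115 CPM in other C1q-positive cells, with 4 and 5 of 8 genes detected and Pdpn the most abundant. Prox1, Reln and Mmrn1, which define lymphatic endothelium, had 0 UMIs in members of both libraries, and Flt4 had 0 in the Irg1+/+ library. Fibroblast genes summed to 5.48 and 12.8 CPM, with Dcn and Pdgfra at 0. Melanocyte genes, of which the tumor cells are the source, summed to 168 and 55.7 CPM led by Dct (87.7 and 23.1 CPM), against 374 and 113 CPM in other C1q-positive cells. B cell genes stood at 7.83 and 12.8 CPM, mast cell genes at 11.0 and 36.0 and neutrophil genes at 42.3 and 134, the latter beside 150 CPM in other C1q-positive cells of that library. The part of free RNA or of cell pairs in these values was not tested.

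Ccr2 marks recruited and Timd4 long-lived macrophages in many tissues, and members were not higher than other C1q-positive cells in either. Ccr2 stood at 608 (566 to 653) and 1129 CPM (1069 to 1192) in members and at 852 and 1142 CPM in other C1q-positive cells. A Ccr2 UMI was found in 90.5% and 94.1% of members, but at 2000 UMIs in 50.0% and 71.7% against 52.2% and 44.1% of lymphocytes. Whether lymphocytes make Ccr2 themselves was not tested, so their share is no measure of free RNA. The share in the Irg1+/+ library is at their level, and neither expression nor its absence is read from it. Timd4, a receptor for dying cells, was found in 1 and 13 members, at 0.783 and 14.6 CPM against 15.5 and 78.4 CPM in other C1q-positive cells. Folr2, a folate receptor of resident macrophages, stood at 10.2 and 15.4 CPM in members, was found in 11 and 14 of them, and had 0 UMIs in all lymphocytes of both libraries. Few members thus held Folr2. Timd4 stood at 4.72 and 24.0 CPM in lymphocytes, not below its level in members, so its UMIs in members are not read as expression. Ly6c2, a monocyte surface antigen, stood at 435 and 1777 CPM in members and at 1164 and 1536 CPM in lymphocytes. Whether lymphocytes make Ly6c2 was not tested either.

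Gas6, Ednrb and Stab1 stood higher in members with Cd163 or Lyve1 than in those with neither, though the intervals overlapped for Ednrb with Cd163 in the Irg1+/+ library and for Stab1 with Lyve1 in the other. Igf1 had no common order in the 2 libraries. Gas6 stood at 117 and 55.3 CPM in the 51 and 68 members with neither gene, at 195 and 160 CPM in the 20 and 27 with Cd163, and at 402 and 223 CPM in the 7 and 12 with Lyve1, 4 and 5 of which also held Cd163. Ednrb followed the same order, at 30.8 and 82.3, 57.2 and 300, and 139 and 447 CPM. Stab1 stood at 363 and 229, 595 and 419, and 784 and 343 CPM. Fcna stood at 351 CPM in the 12 Lyve1-bearing members of the library labelled Irg1-/-, but nearly all of those UMIs came from the 2 cells with the most Lyve1. Igf1 stood at 402 and 150 CPM with neither gene, at 252 and 229 CPM with Cd163 and at 368 and 31.9 CPM with Lyve1. Selenop was more even, at 375 and 508, 551 and 570, and 735 and 558 CPM. Another split was by C1q, which made up under 0.2% of UMIs in 10 (13.5%) and 18 (17.6%) members and in 71.6% of the other C1q-positive cells of each library. These members had less Gas6 (20.9 and 29.4 CPM against 162 and 100 CPM in the rest), less Selenop (202 and 200 against 476 and 577) and Ccr2 at 955 and 1601 against 564 and 1049 CPM (791 and 651 CPM in lymphocytes), and Fcna had 0 UMIs in them. Without them and without the other cells under that C1q share, 41 and 39 genes were past 2-fold higher and lower in members in both libraries, a setting chosen after seeing the data. The setting also changed which genes reached 100 UMIs, so these counts have no share beside them and nothing is read from them.

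In the Irg1+/+ library Ccr2 stood at 880 CPM in the 28 members with a gate sum of 3 or 4, at 542 CPM in the 30 with 5 to 9 and at 320 CPM in the 16 with 10 or more, beside 791 CPM in its lymphocytes. The last 2 values lie below that of lymphocytes, whose own expression of Ccr2 was not tested, so no order of expression is read from them. In the library labelled Irg1-/- the values were 886, 1430 and 1089 CPM in 31, 38 and 33 cells, beside 651 CPM in lymphocytes. Across all C1q-positive cells, Selenop went from 68.0 and 72.4 CPM at a gate sum of 0 to 749 and 781 CPM at 10 or more. Gas6, a ligand that bridges dying cells to the receptor Mertk, went from 6.63 and 2.94 CPM to 351 and 176 CPM, and Mrc1 from 234 and 229 CPM to 2279 and 1504 CPM. H2-Aa went from 6107 to 2254 CPM in the Irg1+/+ library, whereas in the other it stood at 7203 CPM, at 3760 CPM for sums of 5 to 9 and at 5424 CPM for 10 or more. These bins share their depth with the gate: median UMIs went from 6032 and 6422 to 19042 and 12124.

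**Figure D3:**
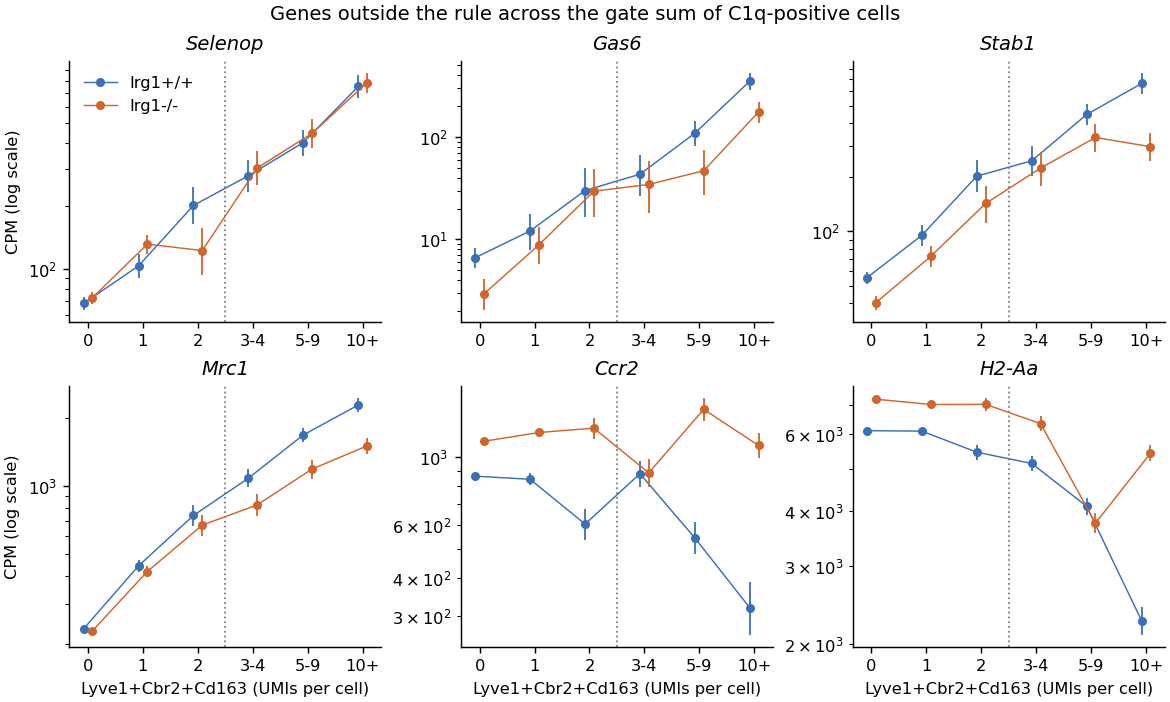
CPM (log axis) of 6 genes outside the rule by the summed UMIs of Lyve1, Cbr2 and Cd163 in C1q-positive cells, for the Irg1+/+ library (blue) and the library labelled Irg1-/- (orange), with exact 95% Poisson intervals; cells right of the dotted line are members. Selenop, Gas6, Stab1 and Mrc1 are higher at a sum of 10 or more than at 0 in both libraries, and H2-Aa is lowest at 10 or more in the Irg1+/+ library.

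Ranked by the smaller of their 2 log2 ratios, Gas6, Igf1 and Etv1 led the genes outside the rule that were higher in members in both libraries. Of 10197 genes with at least 100 UMIs, 191 (1.87%) were past 2-fold higher in members than in other C1q-positive cells in both libraries and 471 (4.62%) past 2-fold lower. The cells were chosen by genes measured in the same comparison, so these counts describe the members and nothing is read from them. Gas6 came first by this ranking, at 146 and 89.9 CPM in members against 8.22 and 4.92 CPM, log2 ratios of 4.15 and 4.19, although Fcna was above it in the library labelled Irg1-/-. Igf1, a growth factor, had log2 ratios of 3.36 and 3.28, and Ccl8 had 2.82 and 2.99, from 1715 and 1376 CPM against 243 and 174 CPM. Etv1, a transcription factor, had 3.25 and 3.71. Fcrls, an Fc receptor-like gene of macrophages, had 3.53 and 2.91. Fcna had 2.95 and 4.98, but 2 cells held 43 of its 54 UMIs in members of the second library, and without the 2 members with the most Fcna in each library the ratios were 2.58 and 2.79. Npl, a lyase of sialic acid, had 3.98, the second highest in the Irg1+/+ library among these genes, and 2.79, and Pdgfc, a growth factor, 3.30 and 2.69. The scavenger receptor Stab1 had 2.70 and 2.52 and the protease inhibitor Timp2 2.44 and 2.40. The iron exporter Slc40a1 had 2.51 and 2.96, and 2.03 and 1.25 without the 2 members with the most of it, which held 41 of 58 UMIs in the second library. Rnase4 (2.69 and 2.71) and B3galnt1 (2.53 and 2.68) completed the 15 highest together with Selenop (2.52 and 2.62) and Ednrb (2.64 and 3.84).

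Most genes at the low end had no UMI in members. Apol7c, Slc17a6, Ndrg2, Prss30 and Mpzl2 had 0 UMIs in members of both libraries. Set against a floor of 3 UMIs, Apol7c was at least 4.46-fold and at least 1.86-fold lower in members. Slc17a6 was at least 2.18-fold and at least 2.30-fold lower, and Klra1, a natural killer receptor, at least 3.75-fold lower in the library labelled Irg1-/-. Bcl2l14 had a log2 ratio of -3.33 and -2.98, and Jchain, the joining chain of antibodies, -3.64 and -3.21. The direction of Jchain turned without likely cell pairs (cells with 2 or more lymphocyte UMIs or above the 95th percentile of UMIs), to 0.44 (-5.46 to 2.43) and 0.56 (-1.04 to 1.62). In the library labelled Irg1-/- it was also 0.22 against cells with at least 3 UMIs of Mrc1 and 0.04 among cells with C1q at 0.2% of UMIs or more. Cd209d, a lectin, had 0 UMIs in members of the Irg1+/+ library, at least 2.57-fold lower, but its log2 ratio there was 0.60 without the upper limits and 3.55 after thinning, and in the other library 1.26 with the gate at 2 UMIs.

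Since most other C1q-positive cells were shallower and held little C1q (median 0.0928% and 0.0911% of UMIs, against 0.620% and 0.594% in members), the members were also set beside the 349 and 435 other cells with at least 3 UMIs of Mrc1. Their median depth was 9798 and 9331 UMIs and their median C1q share 0.337% and 0.226%. Far fewer genes stood apart here: 35 (0.437%) of 8018 were past 2-fold higher in members in both libraries and 42 (0.524%) past 2-fold lower. Gas6 again came first, ranked by the smaller of the 2 ratios, with log2 ratios of 2.99 (2.59 to 3.41) and 3.01 (2.51 to 3.53). Ednrb followed with 2.13 and 3.28. Further down, with other genes between them, Igf1 had 2.07 and 1.94, Ccl8 1.60 and 1.93, Stab1 1.63 and 1.57 and Selenop 1.53 and 1.78. Asgr2, a subunit of the asialoglycoprotein receptor, was the lowest by the same ranking, at -2.76 and -3.51. Cd209a, a dendritic lectin, had -2.70 and -2.40, the chemokine Ccl17 -2.25 and -2.20, the activin subunit Inhba -2.48 and -2.43 and Il1r2, a decoy receptor for interleukin 1, -1.43 and -1.62. The other genes among the 10 lowest were Klrb1b (-2.06 and -1.78), Ffar2 (-1.59 and -1.80), Slc4a11 (-1.52 and -2.81), Abcb1a (-1.94 and -1.39) and Slc30a4 (-1.34 and -2.19).

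**Figure D4:**
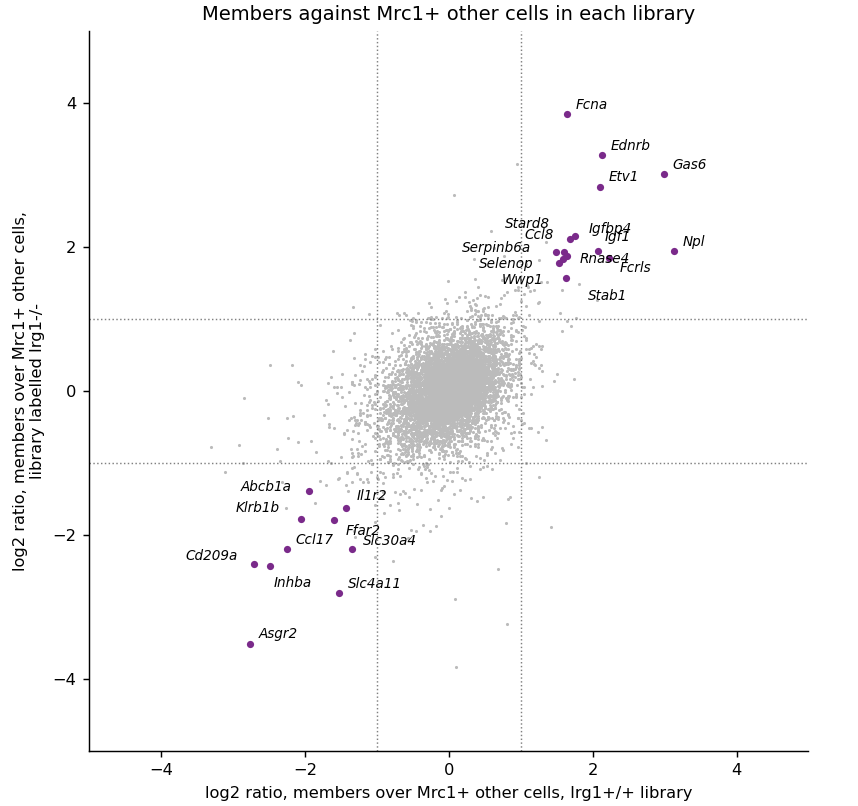
Log2 ratio of members over other C1q-positive cells with at least 3 UMIs of Mrc1, in the Irg1+/+ library (x axis) and in the library labelled Irg1-/- (y axis), for genes with at least 100 UMIs outside the rule; dotted lines mark 2-fold. The 15 highest and 10 lowest genes are named, with Gas6 at 2.99 and 3.01.

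Of 26 resident and perivascular genes with at least 20 UMIs, 24 were higher and 2 lower in members of the Irg1+/+ library (median log2 ratio over other C1q-positive cells 1.13) and 22 were higher and 4 lower in the other (1.62). Of all 12508 genes at that depth 45.5% and 49.8% were higher in members, with medians of -0.07 and -0.00. Of the group, Dab2, an adaptor for uptake, stood at 2060 and 1370 CPM in members and Ccl8 at 1715 and 1376 CPM. F13a1, a clotting factor subunit of macrophages, stood at 741 and 650 CPM. Pf4, a chemokine, stood at 704 and 951 CPM against 149 and 125. Timd4 and Cd209d were the 2 lower in both libraries. Against the Mrc1-bearing cells the group had medians of 0.83 and 1.20, beside 0.01 and 0.04 for all 10730 genes, of which 50.7% and 53.7% were higher. These shares of all genes are the background of the counts of the other groups below.

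Iron and heme genes were higher in nearly every case. Of 13, 12 were higher in members of each library (medians 1.28 and 1.16), and 11 and 13 were higher against Mrc1-bearing cells (0.59 and 0.68). Hmox1, which breaks down heme, stood at 970 and 1352 CPM against 364 and 467 CPM in other C1q-positive cells. Blvrb, which works on the product of that step, stood at 123 and 134 against 43.1 and 54.1 CPM, and Slc40a1, the exporter named above, was past 2-fold higher in both libraries. The list also holds Hpgds, a prostaglandin D synthase that handles neither iron nor heme, at 126 and 104 against 31.3 and 27.3 CPM. Ferritin was high throughout, with Fth1 at 8183 and 8363 CPM against 5443 and 5623. Tfrc, the transferrin receptor, stood at 308 and 71.1 CPM, and 231 of the 393 UMIs behind the first value came from 1 cell.

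Scavenger receptors were higher in 16 and 15 of 18 (medians 0.96 and 0.92), with Mrc1 at 1616 and 1186 CPM against 282 and 279 and Stab1 at 430 and 284 CPM against 66.2 and 49.6. Genes of dead cell uptake were higher in 11 of 14 in each library (0.72 and 0.68). Mertk, the receptor of Gas6, stood at 88.5 and 86.5 CPM against 24.5 and 26.6, whereas Axl, its relative, stood at 140 and 141 against 174 and 157. Lipid genes were higher in 19 and 17 of 21 (0.93 and 0.66), among them the carrier Apoe at 1674 and 2608 CPM and Trem2 at 283 and 285 CPM. Lysosomal genes were higher in 18 and 17 of 20 (0.91 and 0.44), with cathepsin Ctsb at 11555 and 9617 CPM and the cystatin Cst3 lower, at 2741 and 2942 CPM against 6424 and 5212. Against Mrc1-bearing cells these medians were 0.23 and 0.29 for scavenger receptors, 0.10 and 0.22 for dead cell uptake, 0.23 and 0.11 for lipid and 0.28 and 0.12 for lysosomal genes.

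MHC class II genes, which present antigen to T cells, lay on the low side in both comparisons. Of 11 MHC class II genes, 10 were lower in members of each library (medians -0.60 and -0.66), and 10 of 10 were lower against Mrc1-bearing cells (-0.64 and -0.70). H2-Aa stood at 4014 and 5201 CPM in members against 6083 and 7160 CPM, and the invariant chain Cd74 at 4434 and 6012 against 6365 and 7689. The spread among members was wide, with H2-Aa, H2-Ab1, H2-Eb1 and Cd74 together making up 0.243% to 4.93% (median 1.09%) and 0.256% to 5.23% (median 1.41%) of a member's UMIs. MHC class I genes were lower in 14 and 11 of 15 (-0.56 and -0.37), and genes of the type II interferon response in 23 and 24 of 27 (-0.47 and -0.57). Cxcl10, a chemokine for T cells, stood at 214 and 149 CPM against 297 and 476 CPM, and Gbp2, a guanylate-binding protein, at 454 and 806 against 917 and 1264. Type I interferon genes were lower in 31 of 38 in the Irg1+/+ library and in 22 of 38 in the other (-0.46 and -0.12), the latter near the background. Against Mrc1-bearing cells class I genes were lower in 14 and 9 of 15, with medians of only -0.21 and -0.05. Type II interferon genes were lower there in 23 of 26 in each library (-0.29 and -0.35) and type I interferon genes in 37 and 23 of 38 (-0.38 and -0.06).

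Of 20 chemokines, 12 and 13 were higher in members (medians 0.72 and 1.00), but against Mrc1-bearing cells 9 and 13 of 19 (-0.04 and 0.34). Ccl2 stood at 2733 and 1499 CPM against 818 and 682 and Ccl7 at 2482 and 1510 against 653 and 625, whereas Ccl5 stood at 501 and 446 against 1419 and 1326 and Ccl22 at 104 and 53.9 against 566 and 251. Among inflammatory genes 11 and 9 of 20 were higher (0.10 and -0.14), close to the share of all genes. Il1b stood at 961 and 1141 CPM against 1615 and 1781, and Il10, an inhibitory cytokine, at 50.9 and 80.5 against 27.2 and 18.5 CPM. Of 31 transcription factors, 20 and 22 were higher (0.14 and 0.33), but 14 and 21 against Mrc1-bearing cells (-0.08 and 0.13). Among them Maf stood at 713 and 867 CPM against 290 and 328 in other C1q-positive cells, while Bhlhe40 stood at 190 and 154 against 449 and 349. Complement genes were higher in 10 of 13 in each library (0.35 and 0.75), and the genes for the receptors C3ar1 (789 and 958 CPM against 316 and 390) and C5ar1 (500 and 514 against 199 and 207) were among them. Growth factor genes had medians of 0.42 and 0.24, alternative activation genes 0.82 and 0.21, matrix genes -0.00 and 0.07, antioxidant genes 0.19 and 0.03, checkpoint genes -0.33 and -0.03 and glycolysis and hypoxia genes 0.14 and -0.25. Against Mrc1-bearing cells the growth factor medians were -0.01 and -0.06, with 12 and 11 of 25 genes higher, and those of alternative activation 0.02 and -0.08. The matrix medians there were -0.49 and -0.34, with 3 of 18 genes higher in each library, those of glycolysis and hypoxia -0.20 and -0.39, of antioxidant genes 0.07 and 0.11, of checkpoint genes -0.27 and -0.14, of complement 0.15 and 0.37 and of inflammatory genes -0.05 and -0.15. Ribosomal protein genes were lower in 26 and 27 of 27 (-0.31 and -0.40, and -0.11 and -0.25 against Mrc1-bearing cells), dissociation stress genes had medians of 0.02 and 0.19 (-0.09 and 0.13), and of the sex-linked and strain list only 2 genes had 20 UMIs.

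Between the libraries, members carried more interferon transcripts and fewer glycolytic ones under the Irg1-/- label. Of 4236 genes with at least 100 UMIs in members, 65 (1.53%) were past 2-fold higher in the library labelled Irg1-/- and 36 (0.85%) past 2-fold lower, with no replicate check. The settings below changed how many genes reached 100 UMIs as well as the cells. Without the upper limits 122 and 124 of 6507 genes were past 2-fold higher and lower, without likely cell pairs 35 and 8 of 818, and after thinning to 2000 UMIs 9 and 3 of 228. In the other C1q-positive cells 62 of the 65 and 33 of the 36 lay on the same side, and among all 4236 genes 9 and 10 were past 2-fold there. Of 12395 genes with at least 20 UMIs in those cells, 4440 were higher and 7955 lower. Acod1 was not lower in members under that label, as given above, and members of that library were shallower, with 11200 against 17007 median UMIs.

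Type I interferon genes were higher in members of the library labelled Irg1-/- in 38 of 38 cases, with a median log2 ratio of 0.90 and 16 past 2-fold. Of all 8356 genes with at least 20 UMIs in members, 4079 were higher and 273 (3.27%) past 2-fold higher, with a median of -0.01. Other C1q-positive cells of the same libraries had 38 of 38 and a median of 0.55, with 2 past 2-fold, beside 139 (1.12%) of 12395 genes. Irf7, a factor that amplifies the response, stood at 88.5 CPM in members of the Irg1+/+ library and at 294 CPM in the other. Isg15, a ubiquitin-like effector, stood at 108 and 314 CPM and Ifi27l2a at 395 and 887 CPM. Ifi44 stood at 11.7 and 89.1 CPM, and at 2000 UMIs it was found in 1.39% and 12.1% of members against 1.78% and 1.85% of lymphocytes, so the first share is at background. MHC class I genes followed, with 15 of 15 higher (0.47, against 14 of 15 and 0.17 in other C1q-positive cells), H2-K1 at 2330 and 3388 CPM and H2-D1 at 3451 and 4782. Markers of other cell types moved with these groups. The 6 monocyte markers summed to 1630 and 4207 CPM in members and to 3723 and 5601 CPM in other C1q-positive cells, with Ly6c2 at 435 and 1777 CPM in members, and the neutrophil genes to 42.3 and 134 CPM in members and to 67.5 and 150 CPM in the others. Their part in the interferon difference was not tested. Cxcl9 and Cxcl10, which other C1q-positive cells held at 1038 and 1375 and at 297 and 476 CPM, stood the other way in members, at 920 and 700 and at 214 and 149 CPM.

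Glycolysis and hypoxia genes were lower in members of the library labelled Irg1-/- in 20 of 21 cases (median -0.52), and in 20 of 21 in other C1q-positive cells (-0.21). Of all genes, 4277 of 8356 were lower in members (median -0.01) and 7955 of 12395 in the other cells (-0.08). Gapdh stood at 1638 and 1106 CPM, Pgk1 at 247 and 134 CPM and Slc2a1, the glucose transporter, at 125 and 48.8 CPM. The rule held both libraries under 0.15% of UMIs in 5 hypoxia genes, and cells past that limit are not members. Melanocyte genes were lower too, at 168 and 55.7 CPM, and their part in the difference was not tested. Chemokines were lower in 14 of 17 (-0.32) and in 15 of 20 in other C1q-positive cells (-0.26), with Ccl2 at 2733 and 1499 CPM and Ccl12 at 1043 and 549 in members. Ribosomal protein genes were lower in 26 of 27 (-0.23) and 27 of 27 in other C1q-positive cells (-0.18). Dissociation stress genes were higher in 16 of 21 (0.36) and 18 of 21 (0.26), among them Fos at 1625 and 2529 CPM in members, and the part of tissue handling in the library ratios was not tested.

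Resident and perivascular genes were higher in the library labelled Irg1-/- in 11 of 20 cases (median 0.18, and -0.10 without the 2 cells with the most Lyve1), scavenger receptors in 6 of 14 (-0.05), genes of dead cell uptake in 4 of 12 (-0.04) and iron and heme genes in 7 of 13 (0.03), so the groups that described the members had no common direction. MHC class II genes were higher in 8 of 10 (0.31), complement genes in 10 of 11 (0.28), type II interferon genes in 20 of 26 (0.33) and checkpoint genes in 10 of 17 (0.29). In other C1q-positive cells MHC class II genes were higher in 10 of 11 (0.16) and type II interferon genes in 26 of 27 (0.45). Complement genes were higher there in 8 of 12 (0.07) and checkpoint genes in 10 of 16 (0.14). Transcription factors were higher in 25 of 31 (0.28), and in 26 of 31 in other C1q-positive cells (0.17). Among them in members, Klf2, a Krüppel-like factor, stood at 135 and 346 CPM, whereas Id2, an inhibitor of basic helix-loop-helix factors, stood at 848 and 394 CPM. Lipid genes were higher in 9 of 20 (-0.10), with the fatty acid carrier Fabp5 at 1101 and 375 CPM. Alternative activation genes were lower in 10 of 15 (-0.38), lysosomal genes in 15 of 20 (-0.20), growth factor genes in 14 of 25 (-0.17) and matrix genes in 9 of 16 (-0.11), with Spp1, the secreted protein osteopontin, at 781 and 257 CPM. In other C1q-positive cells these groups had medians of -0.02, -0.02, -0.04 and -0.23. Inflammatory genes had a median of -0.02, antioxidant genes 0.05 and the 1 gene of the sex-linked and strain list 0.32.

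**Figure D5:**
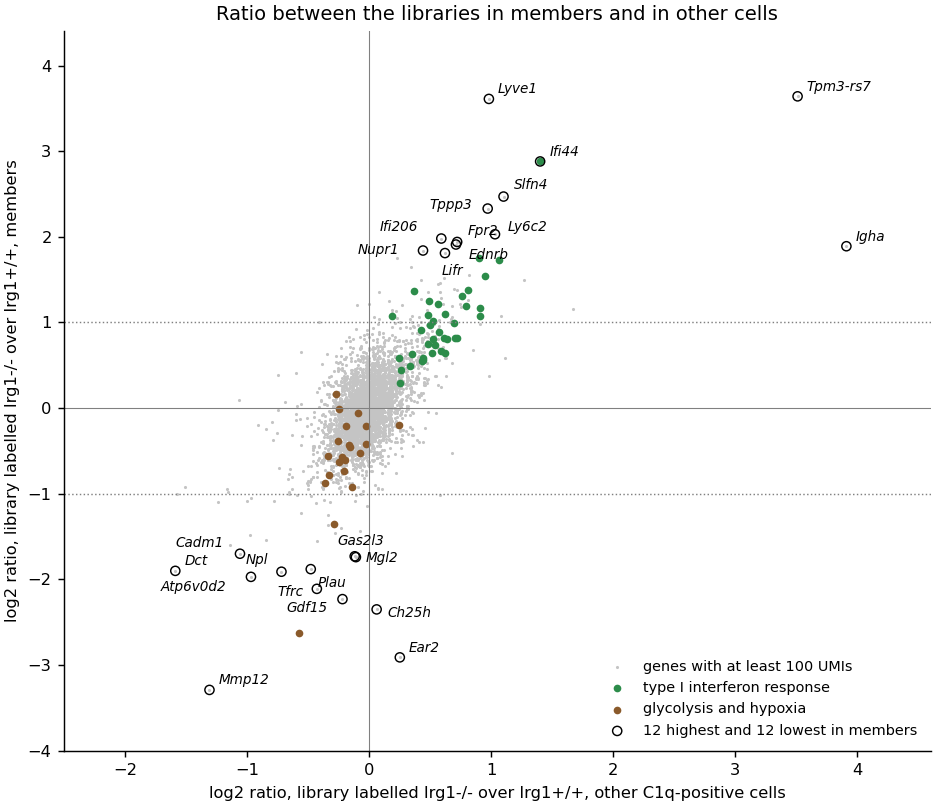
Log2 ratio of the library labelled Irg1-/- over the Irg1+/+ library in other C1q-positive cells (x axis) and in members (y axis), for genes with at least 100 UMIs in members (grey); green points are type I interferon genes, brown points glycolysis and hypoxia genes, both with at least 20 UMIs, and circles the 12 highest and 12 lowest named genes in members. Interferon genes lie above 0 on both axes, and Ear2 is at -2.91 in members and at 0.25 in the other cells.

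Among single genes, Lyve1 stood at 8.61 and 110 CPM (log2 ratio 3.61), was found in 7 and 12 members, and had a ratio of 2.20 without the 2 cells with the most Lyve1. Tpm3-rs7 had 3.64 in members and 3.51 in other C1q-positive cells, and is uncertain because it is a near copy of Tpm3. Slfn4, a gene of the interferon response, stood at 97.9 and 542 CPM (2.47, against 1.10 in other C1q-positive cells). Tppp3 stood at 47.0 and 237 CPM (2.33), Ifi206 at 29.0 and 116 (1.98), Fpr2, a receptor for formylated peptides, at 25.8 and 100 (1.94), and Nupr1 at 19.6 and 71.1 (1.84). Ly6c2 had a ratio of 2.03 in members and 1.03 in the others, Ednrb 1.91 and 0.71, and Lifr 1.81 and 0.62. Igha, an antibody heavy chain that macrophages do not make, had 1.89 in members and 3.91 in the others.

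At the low end, Mmp12, a matrix protease of macrophages, stood at 297 and 30.0 CPM (-3.29, against -1.31 in other C1q-positive cells), and 1 cell held 184 of the 379 UMIs behind the first value; without the member with the most UMIs in each library the ratio was -2.65. Tfrc had -2.11, and -0.93 without such cells. Ch25h, which makes 25-hydroxycholesterol, stood at 89.2 and 17.1 CPM (-2.35, against 0.06), and at 2000 UMIs was found in 11.1% and 5.05% of members against 0.988% and 0.741% of lymphocytes, and Gdf15, a stress cytokine, at 126 and 26.5 CPM (-2.23, against -0.22). Plau, the urokinase gene, stood at 434 and 117 CPM (-1.88, against -0.48). Mgl2, a lectin of alternatively activated macrophages, stood at 308 and 92.5 CPM (-1.73, against -0.12), and Atp6v0d2, a subunit of the proton pump of lysosomes, at 122 and 30.8 CPM (-1.97, against -0.97). Without likely cell pairs the direction of Atp6v0d2 turned, to 2.24 (0.11 to 8.16). Npl had -1.91, Dct -1.90, Gas2l3 -1.74 and Cadm1 -1.70 (-2.48 without the member with the most Cadm1 in each library), and in other C1q-positive cells these stood at -0.72, -1.59, -0.11 and -1.06. Dct is a gene of pigment synthesis in melanocytes and was read above as a marker of the tumor cells.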

How the data were processed

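The authors deposited a matrix of UMI counts per gene and cell for each library, not normalized; their processing notes name CASAVA 1.8, UMI-tools, Seurat and the build GRCm38, and their methods name alignment with STAR and removal of cells with few genes. Both matrices list 31253 genes, for 6408 and 5896 cells holding 43617546 and 36432067 UMIs. Cells with mt- genes at 10% of UMIs or more were left out (124 and 102), and the rule was applied to the rest. The 2 matrices shared 36 barcodes, and no barcode was a member in both. No doublet caller was run; a filter against likely cell pairs was an alternative.

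UMIs were summed over the cells of a group and divided by the sum outside mt- genes (CPM). Log2 ratios used a pseudocount of 0.5 UMIs, with exact conditional 95% intervals. With 1 library per genotype no test was possible, so genes past 2-fold with at least 100 UMIs were counted. The ratio and its interval were tested on simulated data. Genes were named by a rule (marker and rule genes, Acod1, the 15 highest and 10 lowest ratios of members, the 12 highest and 12 lowest between libraries, and leading genes of each list), and further list genes given as examples were chosen after their values were seen. 1 gene that the rule names is not reported here. The members, lists and rule were chosen with earlier results of these data known. Intervals came from scipy 1.17.1 and scaling factors of an alternative from edgeR 4.0.16 in R 4.3.3; sums were made with numpy 2.4.6 and pandas 2.3.3 in Python 3.11.15, and figures with matplotlib 3.10.9.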

Additional observations from a re-analysis of the deposited data

Results flagged for a closer look

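Ear2, a ribonuclease first described in eosinophils and also found in alternatively activated macrophages, stood out because its ratio between the libraries had opposite signs in 2 groups of cells. In members it was lower in the library labelled Irg1-/- (log2 ratio -2.91, interval -4.02 to -2.06, 94 and 11 UMIs). In other C1q-positive cells it was slightly higher there (0.25, 0.06 to 0.44). The 94 UMIs lay in 9 of 74 members, with 30 in 1 cell and 94.7% in 5, and the 11 UMIs in 9 of 102. The difference between the groups of cells was not tested, since each genotype has 1 library. This direction, too, is between libraries as labelled, since Acod1 was not lower under the knockout label in either of these groups of cells.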

How the results depend on the processing

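Of the summary values, 50 were classed as close to the values reported, 35 as moved and 2 as turned in direction. Of the values of single genes and lists, 1616 were classed as close, 364 as moved and 21 as turned. The counts between libraries under TMM scaling, 73 higher and 33 lower beside 65 and 36 as reported, were classed as close. A gate of at least 2 UMIs gave shares of 1.91% and 2.57%, and at least 5 UMIs 0.732% and 1.23%. With at least 2 of the 3 gate genes the shares were 0.366% and 0.552%, 319 genes were past 2-fold higher than in other C1q-positive cells and 32 higher under the Irg1-/- label. Thinning to 2000 UMIs gave 0.661% and 0.987%, 288 genes lower in members, and 9 higher and 3 lower between libraries. Without cells holding 2 or more lymphocyte UMIs or above the 95th percentile of UMIs the shares were 0.479% and 1.37%, their log2 ratio 1.51 (1.33 among C1q-positive cells), 284 genes were lower in members, and 35 were higher and 8 lower between libraries. The shares under this filter are of the cells left by it and do not show how many members it removed. Without the upper limits the shares were 2.48% and 2.23%, their log2 ratio turned to -0.16 (-0.08 among C1q-positive cells), and 122 genes were higher and 124 lower between libraries. A minimum of 20 UMIs gave 341 genes higher in members and 273 higher and 232 lower between libraries, and a minimum of 1 UMI gave 3688, 1724 and 1778. The mean of single-cell CPM gave 56 genes lower between libraries. Against Mrc1-bearing cells 35 genes were higher and 42 lower, and against cells with C1q at 0.2% of UMIs or more, a setting chosen after seeing the data, 41 and 39. Of the counts between libraries, those after thinning come from 228 genes, those without likely cell pairs from 818, those with 2 gate genes from 1617 and those without upper limits from 6507, beside 4236 as reported. The counts of members over other cells likewise come from a number of genes that changed with the setting. They have no share beside them here, so nothing is read from their size. No other cause of these moves was tested.

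Some single values turned. The ratio of Cd209d over other C1q-positive cells was 1.26 with the gate at 2 UMIs (library labelled Irg1-/-), and 0.60 without upper limits and 3.55 after thinning (Irg1+/+). That of Jchain was 0.44 and 0.56 without likely cell pairs, and in the library labelled Irg1-/- 0.22 against Mrc1-bearing cells and 0.04 at the C1q limit. In the Irg1+/+ library the median of alternative activation genes was -0.22 without likely cell pairs, that of chemokines -0.04 against Mrc1-bearing cells, and that of growth factor genes -0.01 there and -0.04 at the C1q limit. The median of the sex-linked and strain list in the Irg1+/+ library was -0.27 without likely cell pairs, -0.07 after thinning, -0.47 with 2 gate genes, -0.18 against Mrc1-bearing cells and -0.14 at the C1q limit, and in the other library -0.34, -0.04 and -0.05 for the last 3 of these. The median of alternative activation genes against Mrc1-bearing cells was -0.08 in the library labelled Irg1-/-, and that of resident genes between libraries was -0.10 without the 2 cells with the most Lyve1, a setting chosen after seeing the data. Leaving out the 2 members with the most UMIs of each leading gene, chosen likewise, turned none of the called ratios of members. Between libraries, without likely cell pairs, Cd163 had a log2 ratio of -0.52 and Atp6v0d2 2.24. A gene with no UMI in a group under a setting got no value there.

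No paired analysis was possible because each genotype has 1 library. For the same reason no replicate could be left out, mice of a pool cannot be told apart, and genotype and library cannot be told apart. Intervals cover counting error only. A count of 0 allows, as 3 counts of the total, a UMI in up to 4.05% of the 74 and 2.94% of the 102 members, and does not limit the share of cells that express a gene.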
